A study of Mus musculus with 5 samples.

Results

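The paraoxonase genes Pon1, Pon2 and Pon3 and the regucalcin gene Rgn were followed in mouse liver with and without the histone deacetylase Hdac3. They were chosen by gene symbol, and each was read by 1 probe set, the only row of that symbol. They are 4 of 19938 genes measured on 5 Affymetrix gene arrays of total liver RNA. The set was put together with the tumour and control values of these arrays known, among which Pon1 and Rgn stand out, so their differences between the groups are given as a description and without a test.

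The 2 control livers were normal tissue of Hdac3FL/+; AlbCre+ mice and the 3 other samples were liver tumours of Hdac3FL/-; AlbCre+ mice, all males of about 10 months on regular food. In both groups the albumin promoter drives Cre recombinase, so that it works in hepatocytes. It removes the floxed allele in the controls too, so control hepatocytes keep a wild-type allele only, while hepatocytes of the tumour-bearing mice are left without Hdac3. Each null sample was tumour and each control was normal tissue, so genotype and tumour cannot be told apart. Replicates are called biological in the labels, which do not say how much non-tumour tissue a sample held.

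Paraoxonases are calcium-dependent lactonases that arose by gene duplication and lie next to each other in the genome. Pon1 is made mainly by hepatocytes and secreted, and its protein circulates on high-density lipoprotein (HDL), where it hydrolyses lactones, aryl esters and the oxons of organophosphate insecticides. The Pon3 protein is also made in liver and found on HDL and inside cells, whereas Pon2 is an intracellular membrane protein made in most tissues. Regucalcin, also known as senescence marker protein, is an abundant cytosolic protein of liver and kidney that binds calcium and, as a gluconolactonase, forms the lactone from which mice make ascorbate (vitamin C). Both protein families are built as beta-propellers.

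Pon1 was the gene of the family with by far the widest difference. On the deposited log2 scale both controls were high, at 11.91 and 12.07, and tumours 1, 2 and 3 read 8.72, 5.00 and 3.93. All tumours lay below both controls, and the tumours were far apart among themselves, with tumour 1 the highest. The mean was 11.99 ± 0.12 (SD, n = 2) in the controls and 5.88 ± 2.51 (SD, n = 3) in the tumours, a difference of −6.11 log2 units (SE 1.33), or a 69.1-fold lower level. Taken tumour by tumour, Pon1 was 9.67-fold, 128-fold and 267-fold lower than the mean of the controls. The value of tumour 3 lay under the lower quartile of its array (4.34), where a value was not shown to be above background, so that the largest of these folds may be understated or imprecise. In the controls Pon1 was brighter than 99.5% of genes, and in tumour 3 it was brighter than 13.8%. In whole tissue, fewer cells of a type and less RNA per cell cannot be told apart.

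Rgn, on another chromosome, had nearly the same profile. The controls read 11.78 and 11.71 on the log2 scale, and tumours 1, 2 and 3 read 8.37, 4.50 and 4.73. Here too every tumour lay below both controls and tumour 1 was the highest, but tumours 2 and 3 were close to each other. The control mean was 11.75 ± 0.05 (SD, n = 2) and the tumour mean 5.87 ± 2.17 (SD, n = 3), a difference of −5.88 (SE 1.15), or 58.9-fold. Rgn was 10.4-fold, 152-fold and 129-fold lower in the 3 tumours in turn. In tumours 2 and 3 it was brighter than only 23.5% and 26.3% of genes. These values lay little above the lower quartiles of their arrays (4.29 and 4.34), so the 2 larger folds may also be understated or imprecise. The change of Pon1 less that of Rgn was 0.10 log2 units in tumour 1, 0.25 in tumour 2 and −1.05 in tumour 3, so the gap between the pair was widest in tumour 3.

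Pon3 read 9.25 and 9.17 (log2) in the control livers and 8.77, 8.70 and 8.82 in tumours 1, 2 and 3. The groups did not overlap, and the tumours lay within 0.12 log2 units of each other, a range wider than that of only 10.4% of genes. Its difference was −0.45 (SE 0.12), a 1.36-fold lower level. Pon2 read 8.89 and 8.88 (log2) in the control livers and 9.02, 8.73 and 8.56 in tumours 1, 2 and 3. Tumour 1 lay above both controls and tumours 2 and 3 below them, so the groups overlapped, and the difference of −0.12 (SE 0.17) was smaller than its error. It kept its sign when the arrays were normalised again by quantiles (−0.09) or shifted to a common median (−0.21), a shift that moved the median of all genes from −0.02 to −0.12.

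All tumours lay below both controls for 3 of the 4 genes, and for 23.1% of all genes. A level lower by 2-fold or more with no overlap was found for Pon1 and Rgn, and for 3.87% of all genes. Counted from the most negative difference, Pon1 was number 8 and Rgn number 13 among 19938 genes, while Pon3 was number 2264 and Pon2 number 7108. These ranks describe the choice of the genes and are no test.

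**Figure D1:**
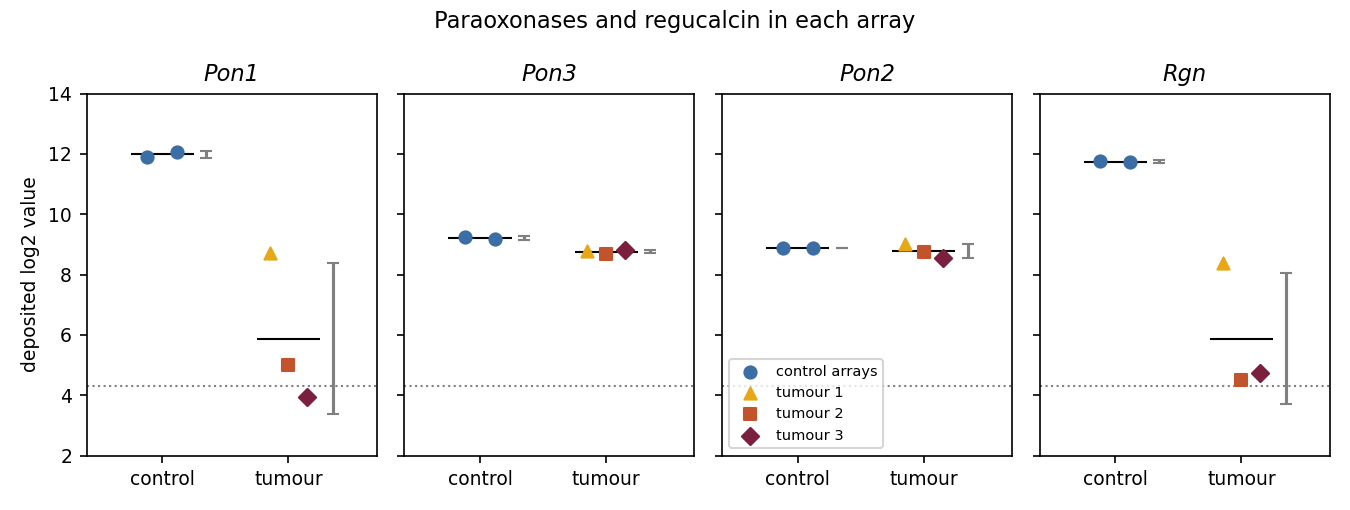
Deposited log2 values (vertical axis) of the 3 paraoxonase genes and Rgn in the 2 control arrays (circles) and in tumours 1 (triangle), 2 (square) and 3 (diamond). Black lines are group means, grey bars at the side are ± 1 SD, and the dotted line is the mean lower quartile of the arrays. Pon1 and Rgn drop from near 12 to between 3.93 and 8.72 with tumour 1 the highest, while Pon3 and Pon2 stay between 8.56 and 9.25.

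**Figure D2:**
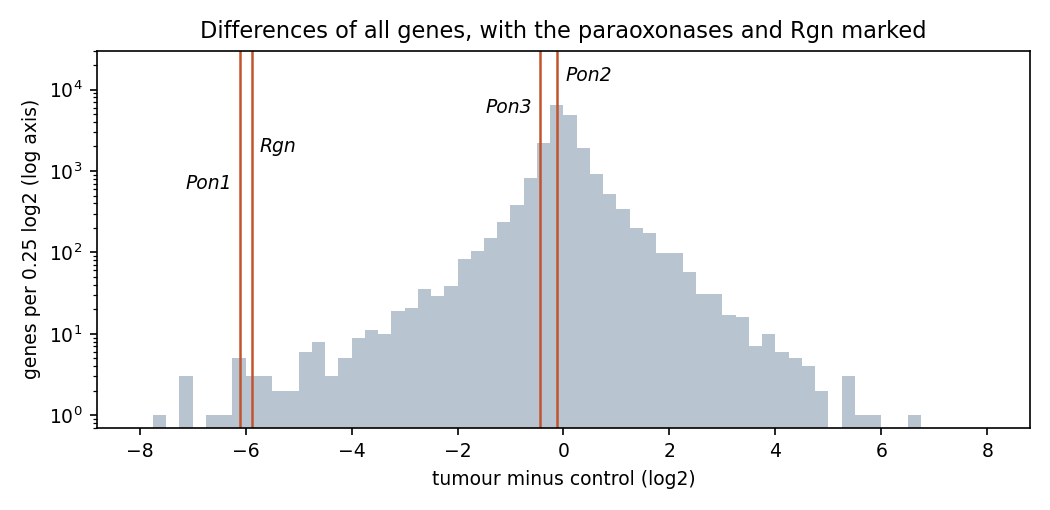
Histogram of the tumour minus control difference (log2, horizontal axis) of 19938 genes, with the number of genes on a log axis. The vertical lines mark Pon1 (−6.11), Rgn (−5.88), Pon3 (−0.45) and Pon2 (−0.12), the first pair in the far left tail and the others in the central mass.

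The start regions of the 3 paraoxonase genes are shown because these neighbours and paralogs differed so widely in the same arrays. The sequences are RefSeq's, in build GRCm38.p6, from 250 bases before to 50 bases after the annotated start. All lie on the minus strand of chromosome 6, Pon1 at chr6:5193897-5194196, Pon3 at chr6:5256184-5256483 and Pon2 at chr6:5298291-5298590, and are printed 5′ to 3′ in the direction of the gene. Of the 4 genes, 3 were matched in the promoter table. Capitals mark each match to the 11 motifs searched on both strands.
Pon1: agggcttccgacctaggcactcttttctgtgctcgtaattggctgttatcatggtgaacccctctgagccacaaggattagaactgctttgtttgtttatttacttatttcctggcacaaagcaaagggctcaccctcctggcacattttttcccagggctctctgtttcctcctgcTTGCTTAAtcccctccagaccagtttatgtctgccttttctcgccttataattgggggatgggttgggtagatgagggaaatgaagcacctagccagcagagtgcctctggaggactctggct
Pon3: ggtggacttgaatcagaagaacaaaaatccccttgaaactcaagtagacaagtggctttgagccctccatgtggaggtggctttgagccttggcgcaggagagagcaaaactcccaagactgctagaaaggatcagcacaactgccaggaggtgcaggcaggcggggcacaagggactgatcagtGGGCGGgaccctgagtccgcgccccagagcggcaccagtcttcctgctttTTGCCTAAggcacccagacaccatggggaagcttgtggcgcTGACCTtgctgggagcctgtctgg
Pon2: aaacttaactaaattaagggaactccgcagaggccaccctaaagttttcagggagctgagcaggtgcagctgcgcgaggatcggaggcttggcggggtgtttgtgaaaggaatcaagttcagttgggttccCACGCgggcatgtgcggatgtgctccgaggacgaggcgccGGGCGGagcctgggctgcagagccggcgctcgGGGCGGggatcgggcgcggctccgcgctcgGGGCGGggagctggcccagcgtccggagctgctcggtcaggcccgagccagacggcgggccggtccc
The motifs were TATAAA for the TATA box, GTTAAT as the core of the HNF1 site, CAAAGTCCA for HNF4, TGTTTAC for the FOXA factors, TTGCNNAA for the C/EBP factors, GGGCGG for SP1, TCACNCCAC for the SREBP factors, GCGTG for the AHR, TTCNNNGAA for STAT5, AGGTCA as the core bound by REV-ERB and TTATGTAA as the D-box. No marked matches overlapped.

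The Pon1 window held only a C/EBP match, TTGCTTAA, starting at base 178 of the 300. That motif is found in 10.8% of 32851 promoter windows of this length. The Pon3 window held a C/EBP match (TTGCCTAA), an SP1 match and, 26 bases past the start, an AGGTCA on the opposite strand, a motif found in 16.3% of windows. The Pon2 window held 3 SP1 matches and an AHR match, motifs found in 35.7% and 32.4% of windows. The windows also differed in base composition. Pon1 had 49.3% G and C and 3 CpG dinucleotides, Pon3 57.7% and 7, and Pon2 67.7% and 31. Medians over all windows were 52.7% and 7, so Pon2 alone of the 3 had a start region rich in CpG (more than 89.4% of windows). These are descriptions of letters in a short window, and no binding was measured.

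The genes around the paraoxonases and Rgn did not share the large differences of Pon1 and Rgn. Most of them, however, were too dim in the controls for a fall of that size to be seen. Their control means ran from 3.76 (Dync1i1) to 10.82 (Slc25a13) on the log2 scale. Asb4 (4.23) and Usp11 (4.32) also lay under the mean lower quartile of the control arrays (4.34). The 5 measured protein-coding genes on each side of the cluster had differences between −1.22 and 0.96 (median 0.07), and 2 of these 10 fell, where 4.96% of all genes fell and 5.6% rose by limma's test (adjusted p under 0.05, Benjamini-Hochberg). They were Casd1, a sialic acid acetyltransferase (−1.22, SE 0.14, adjusted p = 0.0067), and Slc25a13, the mitochondrial aspartate-glutamate carrier citrin (−1.09, SE 0.23, adjusted p = 0.0394). Ppp1r9a, the nearest measured gene on the Pon1 side, had −0.62 (adjusted p = 0.252), and Asb4, the nearest on the Pon2 side, 0.15 (adjusted p = 0.522). The 10 measured neighbours of Rgn lay between −0.95 and 0.71 (median 0.05), and 1 fell, Ndufb11, a subunit of respiratory complex I (−0.95, SE 0.14, adjusted p = 0.0148). Jade3, next to Rgn on the other side, had −0.06 (adjusted p = 0.927). The 3 calls were lost when control 1 (adjusted p between 0.0994 and 0.233) or control 2 (between 0.0902 and 0.255) was left out, and that of Slc25a13 also without tumour 1 (0.0589).

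**Figure D3:**
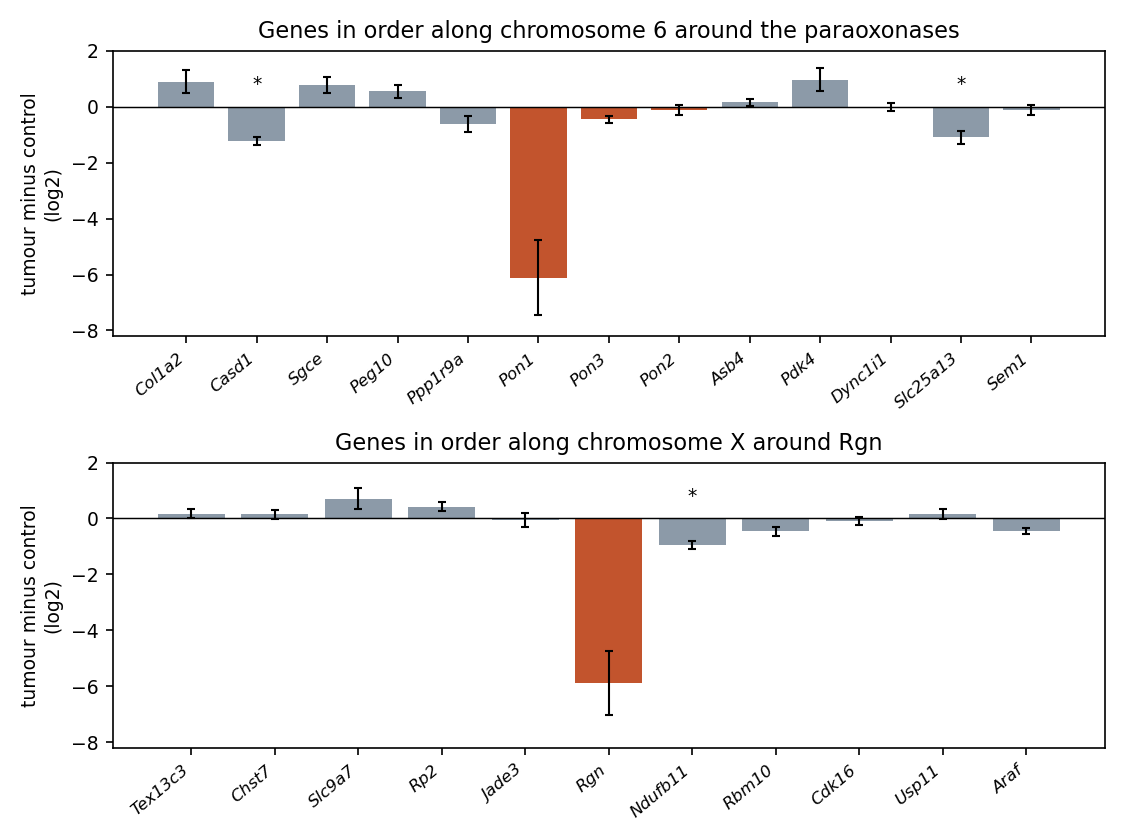
Tumour minus control differences (log2, vertical axis; error bars are the SE of the fit) of genes in their order along chromosome 6 around Pon1, Pon3 and Pon2 and along chromosome X around Rgn, with spacing not to scale. Orange bars are the paraoxonases and Rgn, grey bars their measured neighbours, and asterisks mark neighbours with a limma adjusted p under 0.05 (Casd1, Slc25a13 and Ndufb11). Pon1 and Rgn stand at −6.11 and −5.88 between neighbours of −1.22 to 0.96, most of which were too dim in the controls to show a fall of that size.

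Genes with the most similar profiles were looked for by the Euclidean distance between log2 values over the 5 arrays, each gene centred on its mean. Pon1 was closest to the cytochrome P450 gene Cyp2c50 (distance 0.63 log2 units), followed by the transporter gene Slc22a30 (1.01), Rgn (1.05), Cyp2c37 (1.07) and Cyp2c54 (1.18), against a median of 7.59 over all genes. Rgn was closest to Cyp2c54 (0.31), Cyp2c50 (0.49), Cyp2c37 (0.74), Pon1 (1.05) and the glycosyltransferase gene Ugt3a2 (1.12), with a median of 7.14. Cyp2c50, for example, read 10.94 and 10.99 (log2) in control livers against 7.78, 3.71 and 3.49 in the tumours. Probes of near-identical Cyp2c genes can hybridise to each other's transcripts, so these 3 may not be separate readings. Only 21 of 19938 genes had a tumour mean at least 5 log2 units below the controls, so Pon1 and Rgn could have few close genes. Their distances rest mostly on the size of the fall, known when the genes were chosen, and the profiles are a description only. Pon3 had Wbp2, Epc1, Pcdh20, Pskh1 and Vmn1r219 as its nearest genes (0.05 to 0.07), and Pon2 had B430319F04Rik, Gm19410, Vsig2, Mccc1os and Cybrd1 (0.04 to 0.06). For such small differences many unrelated genes lie close by, the medians over all genes being 0.61 and 0.59.

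**Figure D4:**
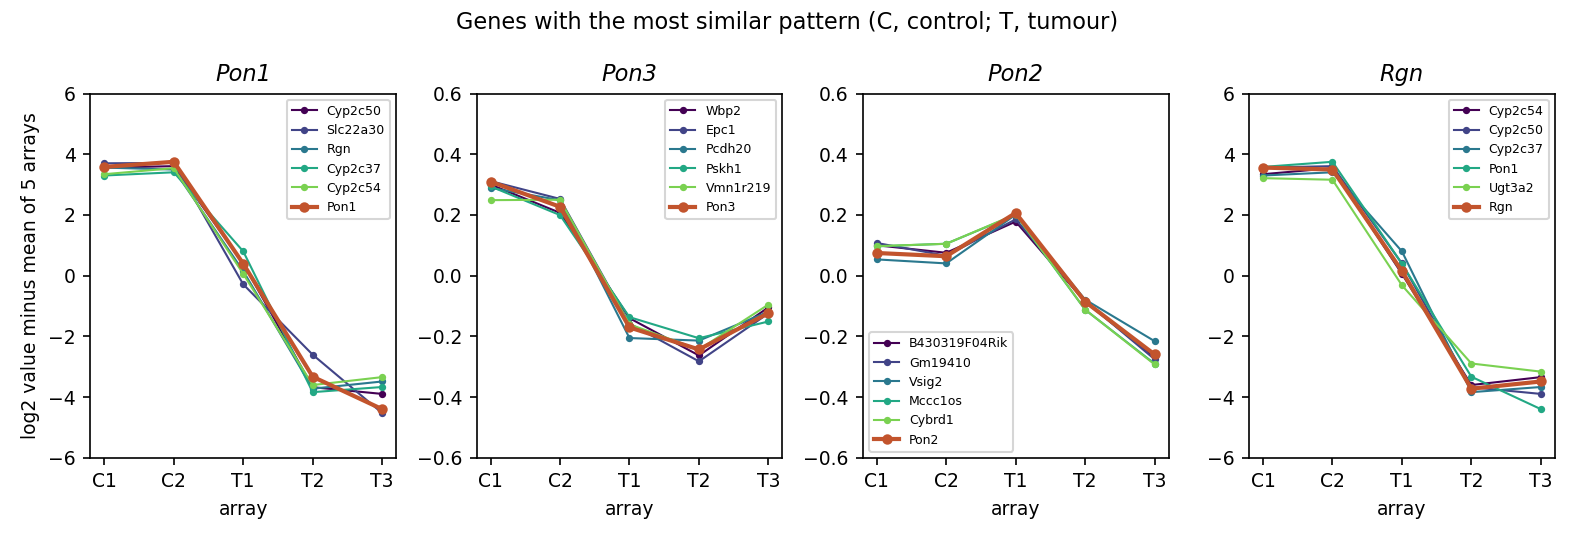
Log2 values minus the mean of the 5 arrays (vertical axis) for each of the 4 genes (thick orange line) and its 5 nearest genes (thin lines) in controls C1 and C2 and tumours T1, T2 and T3; lines join arrays only to guide the eye, and the middle panels have a scale 10 times finer. Pon1, Rgn and Cyp2c genes show the same steps, high in both controls, lower in T1 and lowest in T2 and T3.

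Pon1 and Rgn were both highest in tumour 1 among the tumours, and differed in the order of tumours 2 and 3. Of the 43 genes with a tumour mean at least 4 log2 units below the controls, 29 were highest in tumour 1, 10 in tumour 2 and 4 in tumour 3; 19 had the full order of Pon1 and 10 that of Rgn. Their median changes were −3.58, −5.46 and −6.31 in tumours 1, 2 and 3, against −3.27, −7.00 and −8.06 for Pon1. Hdac3 differed little between the tumours, with a range of 0.21 log2 units (median over all genes 0.33), though its tumours stood in the order of Rgn. It read 6.78, 6.57 and 6.65 (log2) in tumours 1, 2 and 3 against 8.21 and 8.37 in control livers (−1.62, SE 0.13; limma adjusted p = 0.00298, or 0.0505 without control 1 and 0.0663 without control 2). Where its probes lie relative to the deleted exons was not analysed here.

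Markers of the cell types in the samples were read beside these results. Alb, the albumin gene that marks hepatocytes, read 12.65 and 12.85 (log2) in control livers against 12.77, 12.75 and 12.36 in the tumours, which overlap. The 9 measured hepatocyte markers averaged 12.36 and 12.41 in the controls and 12.27 to 12.38 in the tumours. Of them 1 fell and 0 rose (4.96% of all genes fell). Of 12 macrophage markers 6 rose and 0 fell (5.6% of all genes rose), and their mean went from between 6.01 and 6.39 in the controls to 8.25, 7.27 and 7.49 in tumours 1, 2 and 3. Cd68, a general macrophage gene, rose by 3.02 (limma adjusted p = 0.00406, or 0.0688 without control 1 and 0.0658 without control 2), and was at 9.60, 9.45 and 10.26 in tumours 1, 2 and 3. The Kupffer cell gene Clec4f, at 7.51 and 7.87 in the controls, was at 9.28, 6.37 and 5.03 in tumours 1, 2 and 3, and Vsig4 at 9.84, 7.34 and 4.55. The order of the tumours in these 2 genes was that of Pon1, as it was in 4 of the 12 macrophage markers in all; the others, Cd68 among them, had another order. Endothelial markers averaged 7.55 and 7.66 in the controls and 8.49, 7.49 and 6.37 in the tumours. Of these 8 markers 0 were called (10.6% of all genes were called), and 7 had the tumour order of Pon1. This order was not particular to endothelial markers, as 7 of 8 stellate and fibroblast markers had it too. So did 4 of 9 hepatocyte markers, 2 of 6 cholangiocyte markers and 2 of 9 lymphocyte and neutrophil markers. The share of all genes with this order was not counted. Stellate and fibroblast markers averaged 6.70 to 6.84 in the controls and 6.57 to 8.17 in the tumours (1 of 8 risen), cholangiocyte markers 4.60 to 4.63 and 5.22 to 6.13 (0 of 6 called), and lymphocyte and neutrophil markers 4.51 to 4.64 and 4.92 to 5.69 (0 of 9 called). The part of these cells in the results on Pon1 and Rgn was not tested.

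The partners of Pon1 on HDL were mixed. Apoa1, which encodes the main HDL protein, read 13.00 and 12.96 (log2) in control livers against 12.83, 12.66 and 12.68 in the tumours, a difference of −0.26 (SE 0.12, adjusted p = 0.259). Of 14 measured genes for HDL particle proteins 2 rose and 2 fell by limma's test, and the other 10 did not pass; over all genes 10.6% passed. The list's median difference was −0.21, and that of all genes −0.02. Lcat, the enzyme that esterifies cholesterol on HDL, read 11.28 and 11.22 (log2) in control livers against 10.28, 9.49 and 8.91 in the tumours, and fell by 1.69 (SE 0.38, adjusted p = 0.0447). Saa4, a serum amyloid carried by HDL, fell by 5.01 (SE 0.96, adjusted p = 0.0289), from 10.08 and 10.73 to 7.35, 4.94 and 3.90. The value of tumour 3 lay under the lower quartile of its array (4.34), as that of Pon1 did, so the size of this fall is uncertain. Saa4 thus had the tumours in the same order as Pon1, as did 4 of the 14 genes in all. Its relatives Saa1 and Saa2 were not called (adjusted p = 0.711 and 0.745). Saa1 read 5.10 and 6.15 in the controls against 7.38, 3.43 and 3.01 in tumours 1, 2 and 3. Saa2 read 6.13 and 6.35 against 8.03, 4.02 and 4.17. In both, tumour 1 lay above the controls and tumours 2 and 3 below them, under the lower quartiles of their arrays. Apoa4, an apolipoprotein, rose by 1.61 (SE 0.16, adjusted p = 0.0046), and Pla2g7, the lipoprotein-associated phospholipase made by macrophages among other cells, rose by 3.43 (SE 0.47, adjusted p = 0.0112). All macrophage markers together had a median difference of 1.86. Without control 1 only Apoa4 kept its call (adjusted p = 0.0444, the others up to 0.26), without control 2 none did (0.0688 to 0.261), and Lcat and Saa4 were also lost without tumour 2 (0.112 and 0.0826).

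Among 5 measured genes for HDL receptors, cholesterol transporters and lipases, 1 rose and 1 fell, where 5.6% of all genes rose and 4.96% fell. Abcg1, a cholesterol exporter, rose by 1.68 (SE 0.23, adjusted p = 0.0117), and Lipg, the endothelial lipase that acts on HDL, fell by 1.96 (SE 0.30, adjusted p = 0.0157). Scarb1, the HDL receptor, stood at 0.55 (adjusted p = 0.185) and Abca1, which loads cholesterol onto nascent HDL, at 0.30 (adjusted p = 0.317). Both calls were lost without control 1 (0.133 and 0.138) or control 2 (0.0844 to 0.104), and Scarb1 gained a call without tumour 3 (0.0222).

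Rgn acts just before the last step of ascorbate synthesis, and the gene of that last enzyme, Gulo, was low in the same tumours. Gulo read 11.29 and 11.43 (log2) in control livers against 10.11, 7.21 and 5.30 in tumours 1, 2 and 3. All tumours lay below both controls, with the same order as in Pon1, but the difference of −3.82 (SE 1.29) did not pass the test (adjusted p = 0.13). Without tumour 1 it was −5.11 and passed (0.0119), and without tumour 3 it was −2.70 and did not (0.108). Earlier in the route, Ugp2, which makes UDP-glucose, rose by 0.83 (SE 0.14, adjusted p = 0.0203), and Ugdh, which makes UDP-glucuronate, stood at 0.45 (adjusted p = 0.0865). Dcxr, a xylulose reductase of the branch that breaks gulonate down instead, fell by 1.96 (SE 0.20, adjusted p = 0.00472). In all, 1 of 10 measured genes of synthesis, branch and transport rose and 1 fell, with a median difference of −0.04. Of all genes, 5.6% rose and 4.96% fell. The calls of Ugp2 and Dcxr were lost without control 1 (0.15 and 0.0637) or control 2 (0.192 and 0.0844).

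Of 10 measured genes for other lactone and ester hydrolases and related enzymes, 4 fell and 0 rose, where 4.96% of all genes fell. Their median difference was −0.92, and in 7 all tumours lay below both controls (23.1% of all genes). The list also holds enzymes that act on other bonds, such as the formamidase Afmid, so its counts are not those of lactone and ester hydrolases alone. Aadac, a liver arylacetamide deacetylase, read 11.58 and 11.24 (log2) in control livers against 8.41, 9.01 and 8.55 in the tumours, and fell by 2.75 (SE 0.22, adjusted p = 0.00268). Its tumours were close together, unlike those of Pon1. Afmid, the formamidase of tryptophan breakdown, fell by 2.47 (SE 0.42, adjusted p = 0.0217), Lactb, a mitochondrial serine hydrolase, by 1.59 (SE 0.23, adjusted p = 0.0141), and Blmh, which hydrolyses homocysteine thiolactone as Pon1 does, by 0.80 (SE 0.15, adjusted p = 0.0297). Without control 1 all 4 calls were lost (0.0545 to 0.208), without control 2 that of Aadac was kept (0.0487) and the others were lost (up to 0.212), and without tumour 2 that of Blmh was lost (0.0719).

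**Figure D5:**
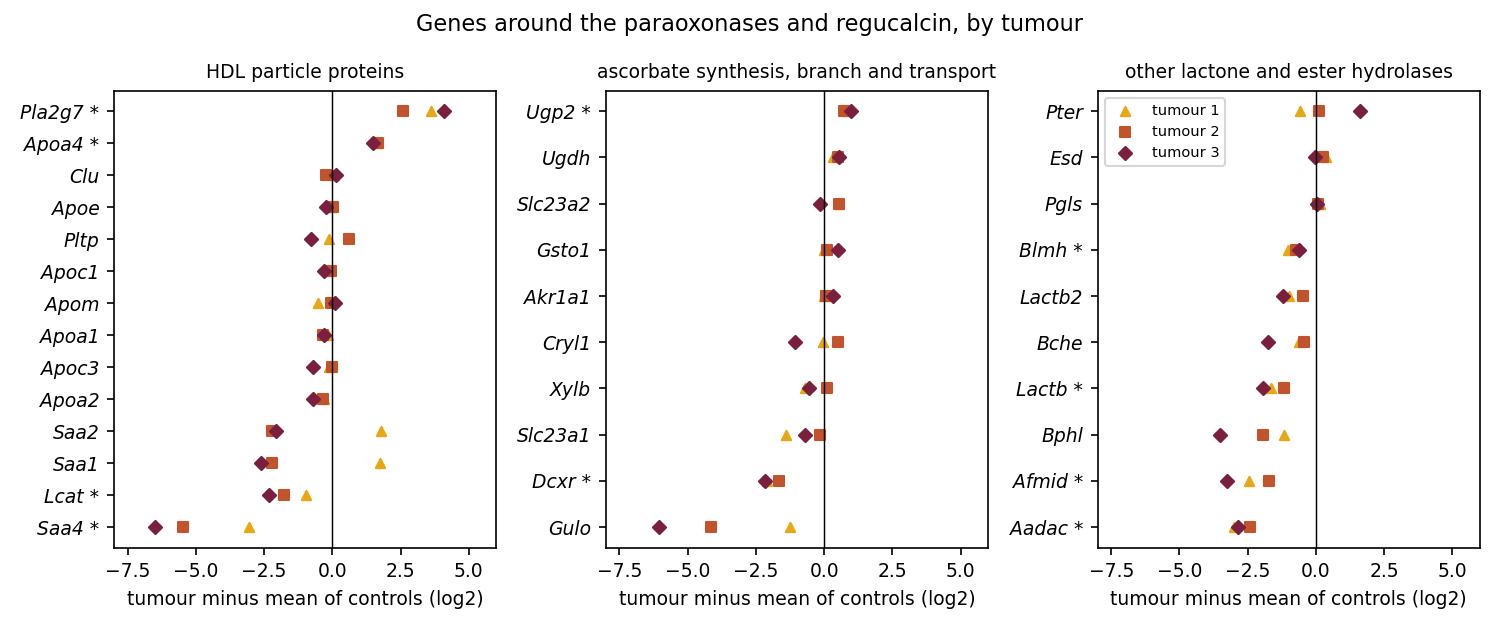
Log2 value of each tumour minus the mean of the controls (horizontal axis) for measured genes. Panels hold genes of HDL particles, of ascorbate synthesis and transport, and of other lactone and ester hydrolases and related enzymes. Triangles, squares and diamonds are tumours 1, 2 and 3, and asterisks mark a limma adjusted p under 0.05. Gulo, Saa4, Saa1 and Saa2 show wide gaps between tumour 1 and the other tumours, while Aadac and Dcxr have all tumours close together. In Saa1 and Saa2 tumour 1 lay above the controls.

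Rgn was named for calcium regulation. Of 13 measured genes for calcium pumps, channels and sensors 1 rose and 1 fell (10.6% of all genes were called in either direction), with a median difference of 0.17. Calm3, a calmodulin gene, rose by 0.81 (SE 0.14, adjusted p = 0.0209), and Itpr2, the main inositol trisphosphate receptor of hepatocytes, fell by 0.77 (SE 0.15, adjusted p = 0.0311). Calm2 stood at 0.57 (adjusted p = 0.0738) and Itpr3 at 0.63 (adjusted p = 0.0798). The calls of Calm3 and Itpr2 were lost without control 1 (0.185 and 0.13), without control 2 (0.14 and 0.237) and without tumour 2 (0.0629 and 0.0819), and that of Itpr2 without tumour 1 (0.0502). Itpr3 gained a call without tumour 2 (0.0477).

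Of 17 measured genes for factors whose motifs were searched, 7 fell and 0 rose, where 4.96% of all genes fell, with a median difference of −0.83. All tumours lay below both controls for 13 of them, and for 23.1% of all genes. The D-box factors Dbp (−1.88, SE 0.18, adjusted p = 0.00455) and Tef (−1.54, SE 0.23, adjusted p = 0.0148) fell, as did the liver pioneer factors Foxa1 (−1.12, SE 0.12, adjusted p = 0.00602) and Foxa2 (−0.98, SE 0.12, adjusted p = 0.00856). The others were Hlf (−1.40, adjusted p = 0.0176), the lipogenic factor Srebf1 (−1.05, adjusted p = 0.0275) and the dioxin receptor Ahr (−1.49, adjusted p = 0.04). All 7 were lost without control 1 (adjusted p 0.0751 to 0.195) or control 2 (0.082 to 0.272), and Hlf and Ahr without tumour 2 (0.0544 and 0.105). The time of day at which livers were taken, which moves Dbp, Tef and Hlf, is not stated in the labels. The D-box, FOXA and SREBP motifs had no match in the 3 paraoxonase windows, and the AHR match lay in that of Pon2. C/EBP was the only motif matched in the Pon1 window. Its factor genes Cebpa (−0.47, limma adjusted p = 0.233) and Cebpb (−0.06, 0.882) were not called. Any link of these factors to Pon1 or Rgn was not tested.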

How the data were processed

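The data were 5 one-colour gene arrays, labelled by a whole-transcript sense method. The authors deposited 1 log2 value per probe set and array, for which the submitters' processing notes name GCOS and RMA with no version. RMA normalises arrays by quantiles and compresses low values. For the genome build, nothing was given in the sources used here. Array medians lay between 5.66 and 5.77.

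Of 28853 probe sets, 21789 had 1 symbol in the platform's annotation, 1621 several and 5443 none. The brightest of each symbol gave 19938 genes. The contrast of tumour with control was fitted with limma 3.58.1 in R 4.3.3 (lmFit and eBayes, all 5 arrays, no covariate, 3 residual and 2.98 prior degrees of freedom, Benjamini-Hochberg over all genes, threshold 0.05, two-sided). SEs of all genes come from this fit. On simulated arrays of 19938 genes the fit recovered 0.916% of changes of 0.5 log2 units, 56.7% of 1 and 94.2% of 2. The simulation changed 200 genes and gave each gene the same spread in both groups. It therefore cannot give the recovery for genes that spread more among tumours than controls, such as Pon1 (SD 2.51 against 0.12).

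The members, the 6 pathway lists and the 6 marker lists were chosen with earlier results of these data known. Named were Hdac3, up to 4 genes per pathway list by smallest p (all called ones where 5 or fewer), the 5 nearest profiles and 5 neighbours on each side in RefSeq order of GRCm38.p6, used for order only. Apoa1, Saa1, Saa2, Alb, Cd68, Clec4f, Vsig4, Hlf, Srebf1, Ahr, Cebpa and Cebpb were named after their values were seen. Python 3.11.15 with pandas 2.3.3 and matplotlib 3.10.9 joined tables and drew plots. Alternatives were another quantile normalisation, a common median, leaving out the 40% of genes with the lowest mean, averaging a gene's probe sets, a variance trend with robust settings, a replicate block and leaving out each array. Each of the 4 genes has 1 probe set, so a choice between probe sets did not arise.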

Additional observations from a re-analysis of the deposited data

How the results depend on the processing

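Pon1, Rgn, Pon3 and Pon2 were lower in the tumours under all alternatives run. With 1 array left out in turn, the difference ranged from −7.53 to −5.13 for Pon1, −7.13 to −5.19 for Rgn, −0.49 to −0.41 for Pon3 and −0.24 to −0.01 for Pon2. Shifting arrays to a common median gave −0.55 for Pon3, a move larger than its SD. Setting tumour values under the lower quartile of their array to that quartile, an alternative chosen after seeing the data, gave −5.97 for Pon1. The number of genes called was 2106 and ranged from 108 (without control 2; 129 without control 1, 1266 without tumour 2) to 2719. Of the calls 53% were rises, or 42.5% with arrays shifted to a common median. With 1 array left out, called genes ranged from 0 to 6 among HDL particle proteins, 0 to 3 among HDL receptors and lipases, 0 to 3 in the ascorbate list, 0 to 5 among the hydrolases, 0 to 2 in the calcium list and 0 to 7 among the factors. Of 26 named genes that were called, 25 lost the call without control 1 and 25 without control 2, 2 without tumour 1, 7 without tumour 2 and 0 without tumour 3; a lone control was taken to vary like the tumours.

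The labels do not say that equal replicate numbers share a litter, batch or day, and no pairing was used. Deviations of same-numbered arrays from their group means correlated over genes at 0.00 and −0.01. With 2 controls, whose deviations are opposite by construction, these values cannot decide whether samples were paired. A replicate block gave 2376 calls, −5.13 for Pon1 and −5.31 for Rgn. Replicate 3 was a tumour array only, so these differences equal those without tumour 3 and are no separate check. The block left 1 call in the calcium list in place of 2 (Itpr2 at limma adjusted p = 0.0535). It also ended the call of Ahr (0.0715). The block gave a call to Col1a2 (0.0461) and Scarb1 (0.0422), and quantile normalisation to Ugdh (0.0439). Quantile normalisation ended those of Lcat (0.0623) and Slc25a13 (0.0558). Some uncalled genes changed sign, Clec4f from −0.80, Vsig4 from −0.20, Alb from −0.12 and Jade3 from −0.06. With the block, and without tumour 3, Alb came to 0.0135, Clec4f to 0.14 and Vsig4 to 1.14. Vsig4 came to 0.18 without control 2. Jade3 came to 0.08 without control 1 and 0.12 without tumour 1. With 1 array left out, Alb ranged from −0.22 to 0.0135, Clec4f from −1.99 to 0.14, Vsig4 from −1.50 to 1.14 and Jade3 from −0.27 to 0.12.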
